A study of Mus musculus with 35 samples.

Results

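RNA-seq profiles of mouse lin- hematopoietic stem and progenitor cells (HSPCs) expressing G-NHX9-DDNA were compared with those of cells expressing G-NHX9-midi-21FGAA. The comparison used every library of these 2 conditions, 5 of each, which is 10 of the 35 libraries and 2 of the 7 conditions in the series. All 35 libraries entered the fit, so the spread of each gene was estimated over all 7 conditions. Both constructs derive from the fusion of NUP98 to HOXA9, and each is impaired in a different part of it. In G-NHX9-DDNA the FG motifs of NUP98 are intact and amino acids of the HOXA9 homeodomain are mutated to weaken its binding to DNA. G-NHX9-midi-21FGAA has the intact homeodomain behind a shortened NUP98 part whose FG motifs were replaced by alanines. This construct also lacks the N-terminal FG motifs of NUP98 and its GLEBS domain, a site of protein interactions. The 2 constructs thus differ in length and in GLEBS as well as in FG motifs and homeodomain. The question asked was therefore how gene expression differed between cells given FG motifs with an impaired homeodomain and cells given an intact homeodomain without FG motifs. Cells came from the bone marrow of C57Bl/6 mice, labelled 8 weeks old in all 10 libraries, and both constructs were fused to mEGFP and delivered by a lentivirus that also encodes mCherry. After a sort for both fluorescent proteins, cells grew for 1 week in methylcellulose with GM-CSF and other growth factors. The 5 Empty libraries, from cells given the vector without a NUP98-HOXA9 construct and sorted for mCherry, were labelled 8 to 10 weeks old and provide the background value of each gene.

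NUP98 is a nuclear pore protein whose phenylalanine-glycine (FG) repeats bind each other and transport receptors. HOXA9 is a homeodomain transcription factor that is abundant in stem and progenitor cells and declines as they mature. In acute myeloid leukemia, chromosomal translocations join the FG repeats of NUP98 to DNA-binding or chromatin-binding domains, and HOXA cluster genes are among the best known genes raised by such fusions. Granulocyte precursors make the proteins of primary (azurophil) granules first, at the promyelocyte stage, and the proteins of later granules afterwards. Mast cells and basophils, erythroid cells and macrophages arise from the same progenitors in this kind of culture.

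Counts per library assigned to genes ranged from 41240027 to 47703538 for G-NHX9-DDNA, from 42388789 to 75810659 for G-NHX9-midi-21FGAA and from 31559914 to 48480625 for Empty. No library pair within a group was a copy of another, since the lowest chi-square between any pair was 22.5 per degree of freedom. Pearson correlations of log2 expression between a G-NHX9-DDNA and a G-NHX9-midi-21FGAA library (0.9785 to 0.992, 25 pairs) spanned almost the same range as those within either group (0.981 to 0.993). The first principal component of the 500 most variable genes, 33.9% of the variance, set all 5 Empty libraries (-25.3 to -13.3) apart from the other 10 (-0.17 to 16.8), and the other two groups overlapped on it. Transcripts of Xist and of Y-linked genes were present in all 15 libraries, which therefore hold RNA of both sexes, and none of the 6 sex-linked genes differed between the constructs. Of 20 lymphoid genes, 13 were too low to be tested, and of the 7 tested the T-cell gene Cd3d averaged at most 0.208 CPM in any group, while the interleukin 7 receptor gene Il7r averaged 211 CPM in G-NHX9-DDNA and 241 CPM in G-NHX9-midi-21FGAA. The progenitor gene Kit averaged 139 CPM in G-NHX9-DDNA and 216 CPM in G-NHX9-midi-21FGAA. CPM is a gene's count scaled to the library's total and normalization factor, and is not corrected for transcript length, so levels are compared here between libraries of one gene and never between genes.

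The genes of the fusion itself were examined first. Hoxa9 (chr6:52223100-52231089, minus strand, mm10/GRCm38) stood at 17.3, 20.3, 17.2, 16.9 and 23.0 CPM in G-NHX9-DDNA replicates 1 to 5 and at 1.23, 2.18, 1.19, 0.73 and 0.242 CPM in G-NHX9-midi-21FGAA replicates 1 to 5. The Empty libraries held between 0.693 and 1.26 CPM. Every G-NHX9-DDNA library was thus above every other library of the comparison, with a log2 fold change of 4.11 ± 0.37 (standard error, n = 5 and 5) and an adjusted p of 2.11e-08. This and every adjusted p below, unless DESeq2 is named, is from the quasi-likelihood F test of edgeR. Each was adjusted over all genes tested in its fit by the Benjamini-Hochberg method. Against Empty, Hoxa9 was higher in G-NHX9-DDNA (log2 fold change 4.27, adjusted p = 1.71e-08) and passed no threshold in G-NHX9-midi-21FGAA (0.16, adjusted p = 0.823). The gene next to it on the cluster, Hoxa10 (chr6:52231197-52240854), named here after its values were seen, reached 0.7725 to 1.405 CPM in G-NHX9-DDNA and 0.0127 to 0.218 CPM in G-NHX9-midi-21FGAA, with a log2 fold change of 3.81 ± 0.49 (adjusted p = 5.11e-05). Both groups were fully separate for this gene too, although its highest count in any G-NHX9-midi-21FGAA library was 12. Nup98 (chr7:102119398-102210176, minus strand) averaged 207 ± 23.3 CPM (SD) in G-NHX9-DDNA, 137 ± 21.2 CPM in G-NHX9-midi-21FGAA and 130 ± 12.5 CPM in Empty, a log2 fold change of 0.59 ± 0.12 between the constructs (adjusted p = 0.00708). In a fit to the 10 libraries alone the adjusted p of Nup98 was 0.0606. Both constructs contain a HOXA9 part and a NUP98 part, and how many of these counts came from construct transcripts rather than from the cells' own genes was not tested. For orientation, Hoxa9 averaged 96.6 CPM with the unmutated G-NHX9.

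**Figure D1:**
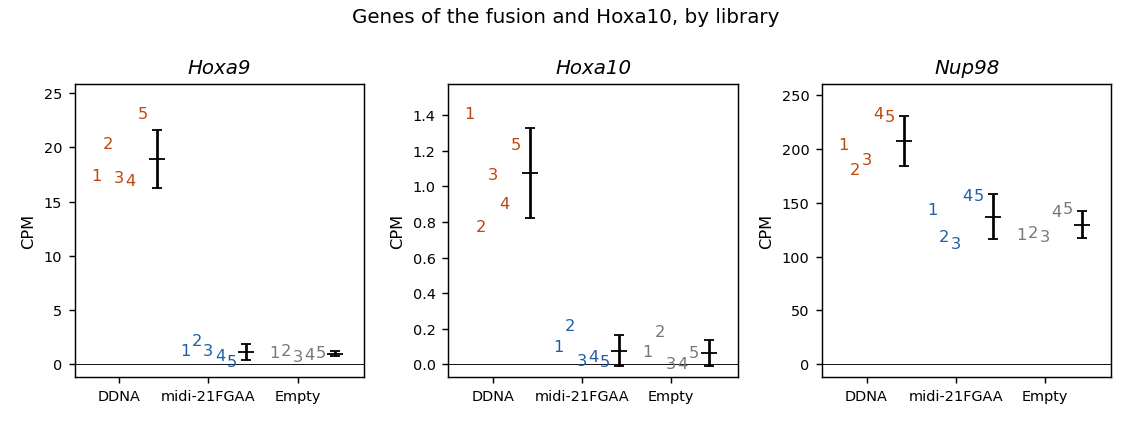
CPM (linear axes) of Hoxa9, Hoxa10 and Nup98 in each library of G-NHX9-DDNA, G-NHX9-midi-21FGAA and Empty. Digits mark the replicate numbers and black bars the mean ± SD of 5 libraries. All 5 G-NHX9-DDNA libraries lie above the other 10 for each gene, with Hoxa9 at 16.9 CPM or more in G-NHX9-DDNA and at 2.18 CPM or less elsewhere.

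Across all genes, few differed between the 2 constructs, and most of those that did were higher in G-NHX9-DDNA. Of 17166 genes tested, 157 (0.915%) passed an adjusted p of 0.05. Of these, 133 were higher in G-NHX9-DDNA (0.775% of genes tested) and 24 were lower (0.14%). With the replicate numbers of the labels as a block, which pair the libraries here, the count was 310, with 249 higher and 61 lower, and it included all 157. At an unadjusted p under 0.05, 5.18% of genes were higher and 3.29% lower in G-NHX9-DDNA. The median log2 fold change was 1.17 among the higher genes and -1.40 among the lower genes. The median over all genes tested, which the normalization centres, was -0.001. The 2 groups did not overlap in 117 of the 157 genes, as against 2.45% of all genes tested. The 157 were selected on these same libraries, so this share is no separate support for the calls. By comparison, 17.2% of the same genes differed between G-NHX9-DDNA and Empty and 16.9% between G-NHX9-midi-21FGAA and Empty, comparisons that share their libraries with the one described here. The count depended on single libraries. It was 98 without G-NHX9-DDNA replicate 2, 91 without G-NHX9-DDNA replicate 5, 94 without G-NHX9-midi-21FGAA replicate 3 and 78 without G-NHX9-midi-21FGAA replicate 4, and without G-NHX9-midi-21FGAA replicate 1 it was 157 with 58 genes lower. Calls lost in at least 1 of the 10 fits that left out a library numbered 95, and 62 genes were called in all 10. Nothing in the labels says that the replicates of a group came from separate animals, so that p-values measure the spread between the libraries fitted.

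**Figure D2:**
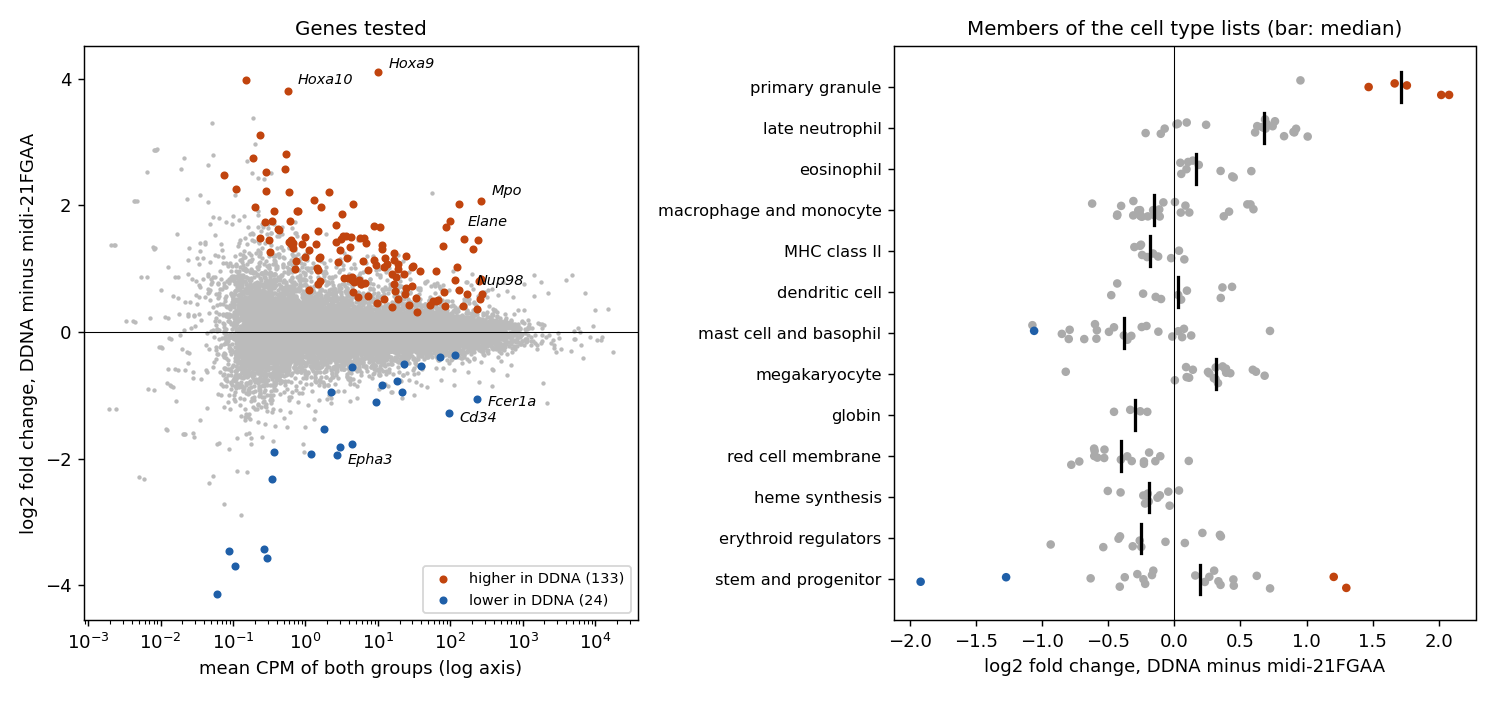
Left, log2 fold change of each gene tested (G-NHX9-DDNA minus G-NHX9-midi-21FGAA) against its mean CPM over both groups (log axis). The 133 genes higher in G-NHX9-DDNA and the 24 lower genes that passed an adjusted p of 0.05 are coloured. Right, log2 fold changes of the tested members of 13 cell type lists (one point a gene, coloured where it passed, black bar the list's median). The primary granule list, with a median of 1.71, lies apart from the other lists, whose medians range from -0.41 to 0.68.

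Among the gene lists, the most concerted difference was in the primary granule list, whose genes were higher in G-NHX9-DDNA. The list holds genes for granule proteins and the membrane protein gene Ms4a3. Of the 6 genes on this list, 5 passed the test in that direction and none in the other, against 0.775% of all genes tested. The lists were chosen with earlier results of these data known, so this share is not independent support. Mpo encodes myeloperoxidase, the enzyme that makes hypochlorous acid in neutrophils. It measured 424, 500.3, 366, 268 and 611 CPM in G-NHX9-DDNA and 98.1, 132, 159.7, 62.6 and 61.3 CPM in G-NHX9-midi-21FGAA, in replicate order. The lowest G-NHX9-DDNA library was above the highest G-NHX9-midi-21FGAA library, and the log2 fold change was 2.08 ± 0.39 (adjusted p = 0.00316). Elane encodes neutrophil elastase, a serine protease of the same granules. Its level was 202, 270.4, 169, 145 and 270.5 CPM in G-NHX9-DDNA and 44.9, 70.8, 67.1, 43.3 and 34.8 CPM in G-NHX9-midi-21FGAA (log2 fold change 2.02 ± 0.44, adjusted p = 0.013). Prtn3, for the related protease proteinase 3, measured 177, 237, 139.6, 80.1 and 129 CPM as against 42.5, 64.6, 60.0, 38.6 and 19.75 CPM (1.76 ± 0.38, adjusted p = 0.0133). Neither protease overlapped between the groups. Ctsg, for cathepsin G, was at 216, 303, 231, 134 and 238 CPM in G-NHX9-DDNA and at 59.3, 105, 119.6, 76.1 and 45.6 CPM in G-NHX9-midi-21FGAA (1.47 ± 0.29, adjusted p = 0.00607). Ms4a3, a four-span membrane protein gene marking granulocyte-monocyte progenitors, was at 154, 202.5, 135, 81.7 and 100.0 CPM and at 36.1, 57.85, 51.9, 41.5 and 25.0 CPM (1.67 ± 0.33, adjusted p = 0.00626). The list's remaining gene, the ficolin gene Fcnb, averaged 35.1 ± 10.6 CPM and 18.1 ± 6.54 CPM and did not pass (0.95 ± 0.32, adjusted p = 0.197).

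In the Empty libraries these genes lay near the G-NHX9-midi-21FGAA level. Mpo averaged 138 ± 86.2 CPM there and differed from G-NHX9-DDNA (log2 fold change 1.65, adjusted p = 0.00345), and its difference from G-NHX9-midi-21FGAA did not pass (-0.43, adjusted p = 0.47). Values for Elane were 1.66 (adjusted p = 0.00825) and -0.36 (adjusted p = 0.613) in the same order, and those for Ctsg were 1.61 (adjusted p = 0.000639) and 0.14 (adjusted p = 0.792). Summed over the 6 genes, the G-NHX9-DDNA libraries held 736 to 1560 CPM, the G-NHX9-midi-21FGAA libraries 198 to 469 CPM and the Empty libraries 132 to 601 CPM. Without G-NHX9-midi-21FGAA replicate 4, the adjusted p of Elane was 0.0601 and that of Prtn3 0.0616, which left 3 of the 6 genes called. Prtn3 also lost its call without G-NHX9-DDNA replicate 2 (0.0701) and without G-NHX9-midi-21FGAA replicate 5 (0.0515).

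**Figure D3:**
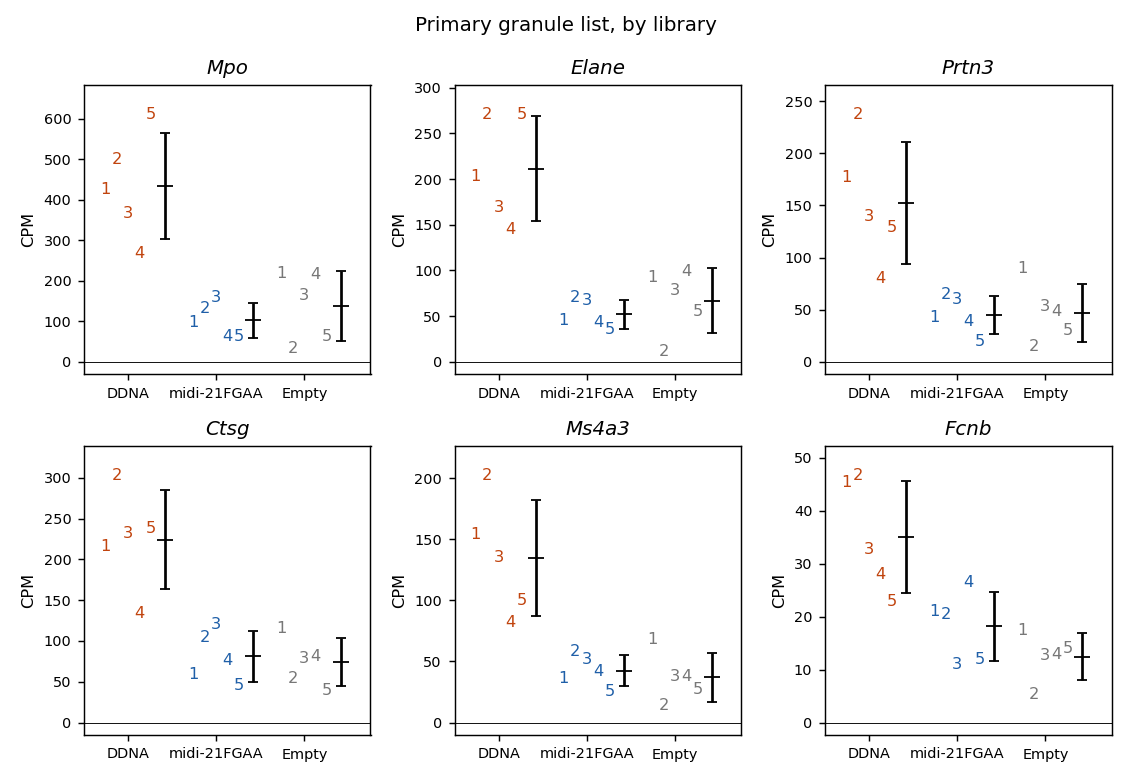
CPM (linear axes) of the 6 primary granule list genes in each library of G-NHX9-DDNA, G-NHX9-midi-21FGAA and Empty. Digits mark the replicate numbers and black bars the mean ± SD of 5 libraries. For 5 genes the 5 G-NHX9-DDNA libraries lie above all 5 G-NHX9-midi-21FGAA libraries, and for Fcnb the groups overlap.

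Since the granule genes moved together, their promoters are shown. The sequences are from RefSeq (GRCm38.p6) and lie within the 250 bases before the gene's start, read on the gene's strand, without stretches that GENCODE release M21 annotates as exon. For Mpo an annotated exon left too little to print. Capitals mark matches on either strand to GAGGAA, a core of sites bound by PU.1, or to TGTGGT, a core of sites bound by RUNX factors. The pattern TTGCNNAA of C/EBP sites was searched too. No match of one motif overlapped a match of another.

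Elane, chr10:79886062-79886246, plus strand: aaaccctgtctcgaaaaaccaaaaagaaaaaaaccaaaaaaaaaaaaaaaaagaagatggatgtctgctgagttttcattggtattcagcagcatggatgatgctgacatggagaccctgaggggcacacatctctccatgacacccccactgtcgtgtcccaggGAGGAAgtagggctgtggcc
Prtn3, chr10:79879417-79879613, plus strand: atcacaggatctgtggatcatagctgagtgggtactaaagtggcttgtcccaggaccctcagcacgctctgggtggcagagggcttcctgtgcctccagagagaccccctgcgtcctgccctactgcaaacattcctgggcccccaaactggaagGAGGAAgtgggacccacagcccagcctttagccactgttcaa
Ctsg, chr14:56102575-56102824, minus strand: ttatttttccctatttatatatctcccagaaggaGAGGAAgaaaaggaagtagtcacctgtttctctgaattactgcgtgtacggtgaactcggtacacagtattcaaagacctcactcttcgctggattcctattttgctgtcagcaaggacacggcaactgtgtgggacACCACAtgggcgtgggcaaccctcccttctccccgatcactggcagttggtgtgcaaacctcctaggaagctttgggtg
Ms4a3, chr19:11640852-11641101, minus strand: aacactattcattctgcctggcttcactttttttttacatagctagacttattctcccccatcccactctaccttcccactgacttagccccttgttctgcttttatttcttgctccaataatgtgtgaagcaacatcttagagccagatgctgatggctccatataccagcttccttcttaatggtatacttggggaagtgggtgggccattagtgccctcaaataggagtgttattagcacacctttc

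GAGGAA was found in the 250-base windows of 4 of the 5 genes (Mpo included) and in 23.3% of 32851 windows of that length before annotated starts. In Elane and Prtn3 the match lies near the end of the printed stretch, toward the gene, and in Ctsg near its beginning. TGTGGT was found in the window of 1 of the 5 genes, Ctsg, and in 14% of all windows, and TTGCNNAA in 0 of the 5 and in 9.56% of all windows. The window of Ms4a3 matched none of the 3 motifs. These matches describe the sequence and do not show binding.

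Elane and Prtn3 are neighbours on chromosome 10, and the genes around them were chosen for description after their values were seen. Of 13 tested genes within 100 kb of Elane (chr10:79886247-79888215), Elane included, 5 were higher in G-NHX9-DDNA, against 0.775% of all genes tested, and none were lower. The 5 include Elane and Prtn3, for which the region was chosen, so their share is not independent of those calls. Plppr3, a lipid phosphatase-related membrane protein gene which starts inside Prtn3 on the opposite strand with 159 exonic bases shared, stood at 10.5 to 23.7 CPM in G-NHX9-DDNA and at 2.69 to 8.26 CPM in G-NHX9-midi-21FGAA (log2 fold change 1.66 ± 0.31, adjusted p = 0.00316). The serine protease gene Prss57, which starts 95.3 kb before Elane, averaged 16.5 and 6.67 CPM (1.30 ± 0.32, adjusted p = 0.0401), with overlapping groups, and kept its call in 2 of the 10 fits without a library. Arid3a, 40.8 kb after it, averaged 95.2 and 71.7 CPM (0.41 ± 0.10, adjusted p = 0.0355) and kept its call in 3 of the 10. The other 8 genes had log2 fold changes between -0.07 and 0.66, none of which passed, although Palm and R3hdm4, both at an adjusted p of 0.0686, came close. Ptbp1, the splicing regulator gene 31.8 kb before Elane, was at 189 and 179 CPM (0.08 ± 0.14), and Med16, the Mediator subunit gene 22.7 kb after it, at 16.3 and 16.1 CPM (0.02 ± 0.16). The difference was thus large at Elane, Prtn3 and Plppr3 and was not detectable at Ptbp1 and Med16 on either side of them. Since the strand setting of the counting is not given in the sources used here, reads of Mpo, Prtn3, Plppr3, Prss57, Gfi1, Abcb1a, Bcat1, Cnn3, Hk3, Cd34 and Sapcd1 cannot be told apart from those of genes that overlap their exons on the opposite strand. In Sapcd1 the overlap with Vwa7 covers 547 of 1028 exonic bases.

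**Figure D4:**
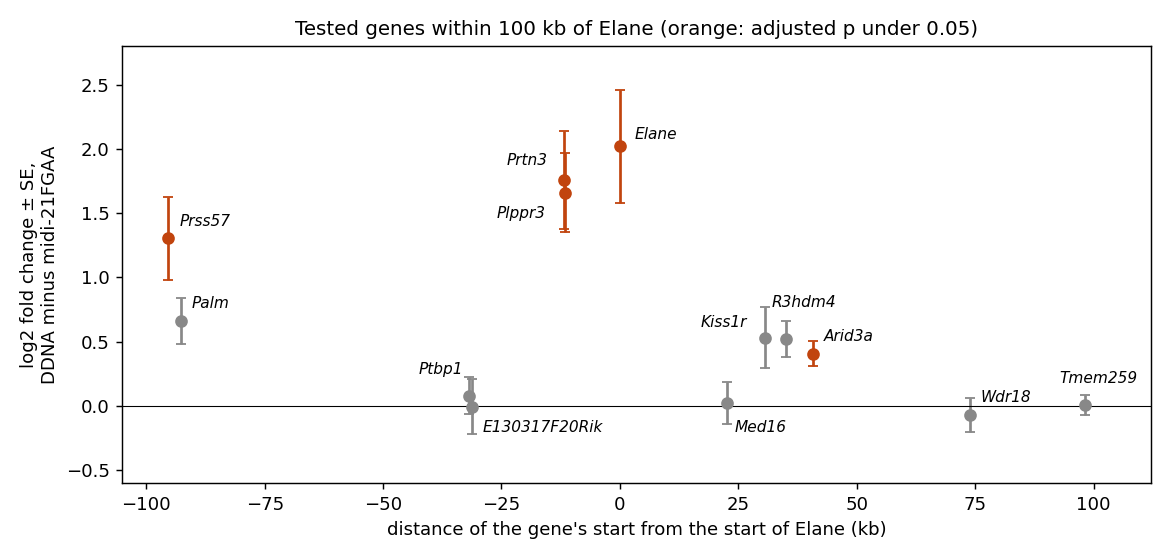
Log2 fold change ± standard error (G-NHX9-DDNA minus G-NHX9-midi-21FGAA) of the 13 tested genes within 100 kb of Elane, by the distance of each gene's start from that of Elane in kb. Orange points passed an adjusted p of 0.05. Elane, Prtn3 and Plppr3 lie between 1.66 and 2.02, and Ptbp1 and Med16 near 0.

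Of 17 myeloid transcription regulators tested, 1 was higher in G-NHX9-DDNA, against 0.775% of all genes tested, and none were lower. With the replicate block and with DESeq2 the count was 2, through Cebpe (adjusted p of 0.0266 and 0.015, as against 0.054). Over all 17166 genes tested, the block and DESeq2 called 249 and 250 higher. The gene called in each of these fits was Gfi1 (chr5:107716657-107726036, minus strand), a zinc finger repressor required for neutrophil maturation, at 33.7, 43.7, 30.2, 23.6 and 40.4 CPM in G-NHX9-DDNA and at 12.8, 19.6, 15.4, 16.2 and 10.5 CPM in G-NHX9-midi-21FGAA (log2 fold change 1.21 ± 0.25, adjusted p = 0.00964, no overlap). Empty libraries averaged 18.02 ± 6.35 CPM. Spi1, which encodes PU.1, was at 187 and 182 CPM (0.04 ± 0.07), Cebpa at 96.6 and 88.1 CPM (0.13 ± 0.11) and Cebpb at 294 and 308 CPM (-0.07 ± 0.14), none of which passed. The median over the list was 0.10.

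For genes of later neutrophil granules and mature neutrophils the calls depended on the fit. None of the 21 tested members passed in the fit without a block, and 11 had an unadjusted p under 0.05, all of them higher in G-NHX9-DDNA, against 5.18% of genes tested. With the replicate block edgeR called 3 of them higher, S100a9 (adjusted p = 0.0436), Lcn2 (0.0251) and Cd177 (0.0241), and DESeq2 called these and Padi4. Over all 17166 genes tested, the block called 249 higher and DESeq2 250. The list's median log2 fold change was 0.68. Ltf, for lactoferrin, averaged 1325 CPM in G-NHX9-DDNA and 782 CPM in G-NHX9-midi-21FGAA (0.76 ± 0.24, adjusted p = 0.145), Ngp, for neutrophilic granule protein, 1887 and 1006 CPM (0.91 ± 0.29, adjusted p = 0.164) and Camp, for the cathelicidin precursor, 243 and 145 CPM (0.74 ± 0.39, adjusted p = 0.643). Summed over the list, libraries held 22570 to 28960 CPM in G-NHX9-DDNA, 13040 to 21230 CPM in G-NHX9-midi-21FGAA and 19910 to 26570 CPM in Empty, so that both construct groups were separate in the sum and both overlapped Empty. The 26 tested macrophage and monocyte genes went the other way in their sum, with 26110 to 31810 CPM in G-NHX9-DDNA and 32190 to 39030 CPM in G-NHX9-midi-21FGAA (41720 to 56750 CPM in Empty), although none passed and their median was -0.16. At an unadjusted p under 0.05, 3 of them were higher and 2 lower, against 5.18% and 3.29% of genes tested, and both the replicate block and DESeq2 called 1 higher, Ly6c2 (adjusted p of 0.0473 and 0.0316). Adgre1, Cd68 and Csf1r had log2 fold changes of -0.27 ± 0.13, -0.26 ± 0.20 and -0.16 ± 0.16. The part that different shares of granulocytic and macrophage cells have in the granule gene difference was not tested, and in bulk RNA fewer cells of a type and less RNA per cell cannot be told apart.

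Other genes higher in G-NHX9-DDNA had varied roles, and several were below Empty in G-NHX9-midi-21FGAA. Abcb1a, a multidrug efflux pump gene, was at 3.47, 4.38, 4.44, 3.99 and 3.96 CPM in G-NHX9-DDNA and at 0.8905, 1.802, 1.02, 1.34 and 1.17 CPM in G-NHX9-midi-21FGAA (log2 fold change 1.70 ± 0.23, adjusted p = 9.81e-05). Empty libraries held more of it than either construct, 7.94 ± 2.50 CPM, and both differences from Empty passed. Asgr2, an asialoglycoprotein receptor subunit gene, averaged 3.50 ± 1.99 CPM in G-NHX9-DDNA, 0.739 ± 0.353 CPM in G-NHX9-midi-21FGAA and 4.13 ± 0.909 CPM in Empty (2.21 ± 0.42, adjusted p = 0.00481). Cnn3, an actin-binding calponin gene, averaged 4.53 ± 1.61, 1.63 ± 0.400 and 3.82 ± 0.463 CPM in the same order (1.48 ± 0.23, adjusted p = 0.000675), and Lbp, for the lipopolysaccharide-binding protein, 25.4 ± 3.85, 12.7 ± 2.61 and 20.6 ± 3.91 CPM (1.00 ± 0.15, adjusted p = 0.000675). For these 3 genes G-NHX9-midi-21FGAA was lower than Empty (adjusted p of 0.000494, 0.000723 and 0.00262) and the difference of G-NHX9-DDNA from Empty did not pass (0.739, 0.483 and 0.184).

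A different order of the groups was seen for Clstn3 and Kcnj5. Clstn3, a calsyntenin gene, was at 3.82 to 7.54 CPM in G-NHX9-DDNA, 1.40 to 2.99 CPM in G-NHX9-midi-21FGAA and 0.888 to 1.46 CPM in Empty (log2 fold change between the constructs 1.52 ± 0.27, adjusted p = 0.00255). Kcnj5, a potassium channel gene, was at 2.83 to 12.8, 1.365 to 2.61 and 0.5997 to 1.61 CPM (2.03 ± 0.44, adjusted p = 0.014), and lost its call without G-NHX9-DDNA replicate 3 (0.063) and without G-NHX9-midi-21FGAA replicate 3 (0.0549) or 4 (0.0534). Both genes were higher in G-NHX9-DDNA than in Empty (adjusted p of 5.76e-05 and 0.000723), and for neither did the difference of G-NHX9-midi-21FGAA from Empty pass (0.148 and 0.539). Bcat1, a branched-chain amino acid transaminase gene, averaged 4.89 and 1.68 CPM (1.52 ± 0.27, adjusted p = 0.00236), and the uncharacterized gene BC035044 4.94 and 1.37 CPM (1.87 ± 0.29, adjusted p = 0.000774). In the fit to the 10 libraries alone Asgr2 (0.0502), Bcat1 (0.0884) and BC035044 (0.0606) did not pass.

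Among the 24 genes higher in G-NHX9-midi-21FGAA, Cd34 had the smallest p of those with at least 2 CPM. Cd34 (chr1:194938819-194961279, plus strand) encodes a sialomucin on the surface of hematopoietic progenitors, mast cells and endothelium. Its level was 71.1, 125, 146, 165 and 168 CPM in G-NHX9-midi-21FGAA and 44.1, 65.0, 55.5, 66.3 and 48.0 CPM in G-NHX9-DDNA, with 22.6 to 45.6 CPM in Empty. The groups did not overlap, G-NHX9-midi-21FGAA replicate 1 lay closest to the other group, and the log2 fold change was -1.27 ± 0.18 (adjusted p = 0.000274). Both constructs were above Empty, G-NHX9-midi-21FGAA by 1.87 (adjusted p = 1.05e-07) and G-NHX9-DDNA by 0.59 (adjusted p = 0.0224) on the log2 scale. Epha3 (chr16:63543534-63864175, minus strand), an ephrin receptor tyrosine kinase gene, was at 2.77, 3.003, 4.91, 6.12 and 5.08 CPM in G-NHX9-midi-21FGAA and at 1.53, 1.33, 1.58, 0.88 and 0.336 CPM in G-NHX9-DDNA (-1.95 ± 0.34, adjusted p = 0.00208). Empty libraries held at most 0.552 CPM, and both constructs were again above Empty (4.12 with an adjusted p of 9.54e-08, and 2.17 with 0.000789). Epha3 was 1 of 7 Eph receptor genes tested, and none of the other 6 passed. Over all genes tested, 0.14% were lower in G-NHX9-DDNA.

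Tek, for the angiopoietin receptor found on endothelium and quiescent stem cells, was at 1.06, 1.53, 1.31, 1.42 and 4.10 CPM in G-NHX9-midi-21FGAA and at 0.269 to 0.615 CPM in G-NHX9-DDNA (-1.92 ± 0.39, adjusted p = 0.00782). Replicate 5 of G-NHX9-midi-21FGAA was far above the rest, and without it the value was -1.41 with an adjusted p of 0.0596. Ddc, for aromatic amino acid decarboxylase, was at 7.99 to 17.0 CPM against 4.65 to 7.91 CPM (-1.11 ± 0.23, adjusted p = 0.00765), Sapcd1 at 3.80 to 8.94 CPM against 1.24 to 2.92 CPM (-1.78 ± 0.32, adjusted p = 0.00288) and the zinc finger gene Zfp945 at 10.9 to 17.6 CPM against 7.54 to 9.30 CPM (-0.84 ± 0.14, adjusted p = 0.00198). None of these 3 genes overlapped between the groups, and each was higher in G-NHX9-midi-21FGAA than in Empty (adjusted p of 0.000128, 0.00854 and 0.00088) while the difference of G-NHX9-DDNA from Empty did not pass (0.157, 0.235 and 0.77). Dnase2b averaged 4.71 and 1.34 CPM (-1.81 ± 0.44, adjusted p = 0.0314) and was called in 4 of the 10 fits without a library, with its highest adjusted p, 0.144, without G-NHX9-midi-21FGAA replicate 4. The remaining 5 genes named by the fold change rule, Spred1, Cyth3, Kifap3, Snx7 and Zfp287, had log2 fold changes between -0.55 and -0.37, with adjusted p from 0.0148 to 0.0482. Each of the 5 lost its call in at least 4 of the 10 fits without a library, at adjusted p of up to 0.205 (Spred1, without G-NHX9-midi-21FGAA replicate 5). In the fit to the 10 libraries alone Tek (0.0641), Ddc (0.0724), Dnase2b (0.0844), Spred1 (0.215) and Zfp287 (0.061) did not pass.

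**Figure D5:**
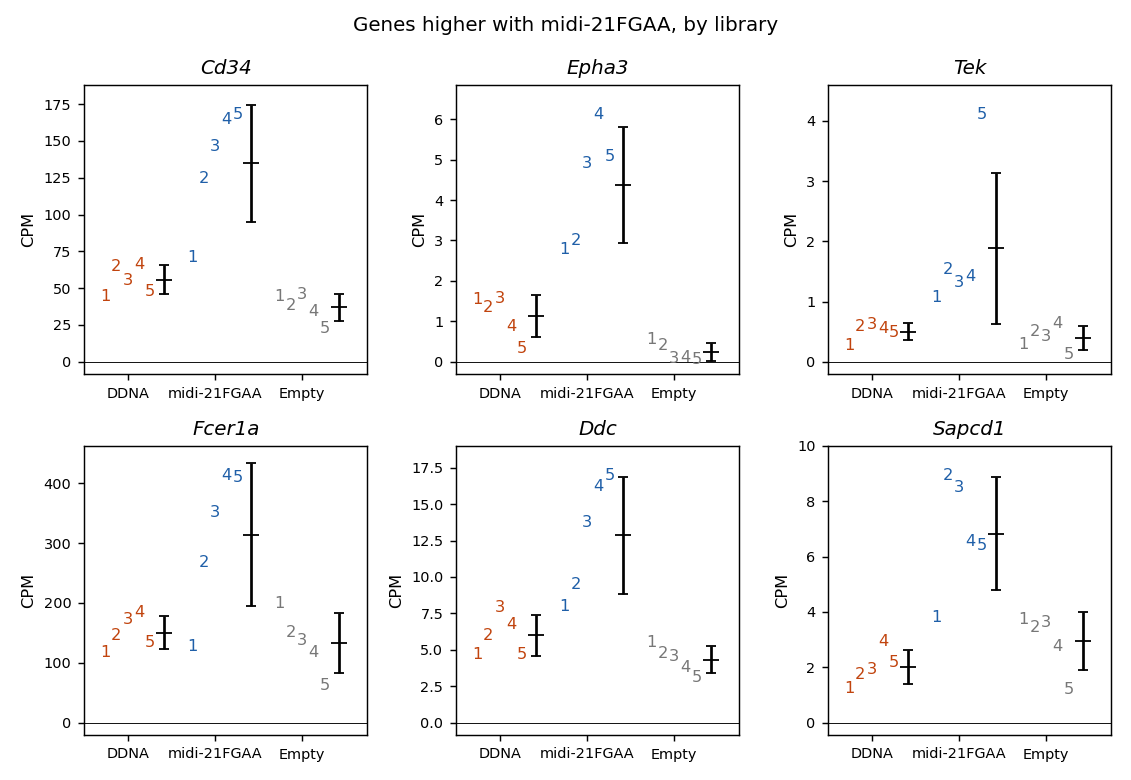
CPM (linear axes) of Cd34, Epha3, Tek, Fcer1a, Ddc and Sapcd1 in each library of G-NHX9-DDNA, G-NHX9-midi-21FGAA and Empty. Digits mark the replicate numbers and black bars the mean ± SD of 5 libraries. G-NHX9-midi-21FGAA libraries lie above all 5 G-NHX9-DDNA libraries except for Fcer1a, where replicate 1 at 127 CPM falls inside the range of G-NHX9-DDNA.

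Of 23 mast cell and basophil genes tested, 1 passed and was lower in G-NHX9-DDNA, against 0.14% of all genes tested. It was Fcer1a, which encodes the alpha chain of the high-affinity IgE receptor. Fcer1a (chr1:173221284-173227214, minus strand) was at 116, 146, 172, 185 and 133 CPM in G-NHX9-DDNA and at 127, 268, 351, 413 and 410 CPM in G-NHX9-midi-21FGAA, with 133 ± 50.1 CPM in Empty (log2 fold change -1.06 ± 0.26, adjusted p = 0.0309). Replicate 1 of G-NHX9-midi-21FGAA alone overlapped the G-NHX9-DDNA range. The call was lost without each of G-NHX9-DDNA replicates 1, 2 and 5 (adjusted p of 0.106, 0.0762 and 0.0933) and G-NHX9-midi-21FGAA replicates 3, 4 and 5 (0.0846, 0.124 and 0.0966), and in the fit to the 10 libraries alone (0.142). No other tested gene of the list passed in the fit without a block. With the replicate block 3 were lower, Fcer1a (0.025), Cma2 (0.0448) and Cpa3 (0.0469), and DESeq2 called Fcer1a and Cma2. Over all 17166 genes tested, the block called 61 lower and DESeq2 56. Without a block 9 of the 23 had an unadjusted p under 0.05, all lower in G-NHX9-DDNA, against 3.29% of genes tested. Cpa3, for mast cell carboxypeptidase, averaged 1407 and 2450 CPM (-0.80 ± 0.24, adjusted p = 0.132), while the serine protease genes Mcpt1 and Mcpt8 had log2 fold changes of -0.21 ± 0.58 and 0.06 ± 0.29. The list's median was -0.38, and its sum ran from 4188 to 5969 CPM in G-NHX9-DDNA and from 4013 to 9304 CPM in G-NHX9-midi-21FGAA, with G-NHX9-midi-21FGAA replicate 1 the lowest of the 10.

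Stem and progenitor genes moved in both directions. Of 22 tested, Gfi1 and Hlf were higher in G-NHX9-DDNA and Cd34 and Tek were lower, against 0.775% and 0.14% of all genes tested. Hlf, a PAR bZIP transcription factor gene of hematopoietic stem cells, was at 1.43, 1.17, 0.963, 2.09 and 2.42 CPM in G-NHX9-DDNA and at 0.602, 0.801, 0.4305, 0.789 and 0.637 CPM in G-NHX9-midi-21FGAA, without overlap (1.30 ± 0.27, adjusted p = 0.00782, and 0.0831 in the fit to the 10 libraries alone). Kit, the stem cell factor receptor gene, had a log2 fold change of -0.63 ± 0.25 (adjusted p = 0.371) and Ly6a, for Sca-1, of -0.28 ± 0.16 (adjusted p = 0.689). The median over the list was 0.19.

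Beyond Hoxa9 and Hoxa10, no Hox gene differed by the test. Of 39 Hox genes, 21 were tested, and 7 had no count in any of the 10 libraries. Of the 21 tested, 2 were higher in G-NHX9-DDNA, against 0.775% of all genes tested. Hoxa7, which lies on the other side of Hoxa9, averaged 1.16 CPM in G-NHX9-DDNA and 1.315 CPM in G-NHX9-midi-21FGAA (-0.17 ± 0.37, adjusted p = 0.97), and Hoxa5 0.325 and 0.573 CPM (-0.80 ± 0.31, adjusted p = 0.329). The list's median was 0.13. Of 10 tested TALE homeobox genes, whose products bind DNA together with HOX proteins, none passed in the fit without a block. At an unadjusted p under 0.05, 3 were higher and 2 lower, against 5.18% and 3.29% of all genes tested. Tgif2 was higher with the replicate block (adjusted p = 0.0121), with the sex score as covariate and with DESeq2 (0.0226). These fits called 249, 203 and 250 of 17166 genes higher, in the same order. Meis1 was at 24.3 and 18.5 CPM (0.39 ± 0.17, adjusted p = 0.489).

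Of 5 further lists, 1 or 2 members passed, and Nup98 was 1 of 47 nucleoporin and transport receptor genes. Over all genes tested, 0.775% were higher in G-NHX9-DDNA and 0.14% lower. Such single calls are therefore not read as a result about a list. The lipoprotein receptor gene Vldlr (17.1 and 7.61 CPM, 1.17 ± 0.23, adjusted p = 0.00685) and Stc2, for stanniocalcin 2 (4.91 and 2.71 CPM, 0.85 ± 0.21, adjusted p = 0.0338), were higher in G-NHX9-DDNA among 23 ATF4 target and serine synthesis genes, whose median was 0.17. Stc2 kept its call in 2 of the 10 fits without a library. The interferon-gamma inducible GTPase gene Gbp4 was higher at 9.82 and 3.71 CPM (1.40 ± 0.26, adjusted p = 0.0031), but shares exonic bases with its paralogs Gbp8 and Gbp9, between which the counting could have split reads. The median of its 15 tested list members was -0.27. At an unadjusted p under 0.05, 3 of them were lower, against 3.29% of all genes tested. Ccl24, for the eosinophil attractant eotaxin-2, was higher at 13.3 and 4.17 CPM (1.67 ± 0.35, adjusted p = 0.0102, and 0.0562 without G-NHX9-DDNA replicate 2), as 1 of 24 chemokine and cytokine genes. Hk3, the hexokinase of myeloid cells, was higher at 264 and 204 CPM (0.37 ± 0.08, adjusted p = 0.0186) as 1 of 18 glycolysis genes, and was called in 4 of the 10 fits without a library. Cd79b, part of the B-cell receptor and chosen after its values were seen, was higher at 1.01 and 0.468 CPM (adjusted p = 0.00738) as 1 of 7 lymphoid genes tested, and Ighm passed as well with the replicate block (adjusted p = 0.0389). Neither Cd3d nor Cd3g passed. In the fit to the 10 libraries alone Gbp4 (0.0963), Ccl24 (0.0919), Hk3 (0.0823) and Stc2 (0.15) did not pass.

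No member of 29 of the 41 lists passed in the edgeR fit without a block, those of late neutrophil, macrophage and TALE genes included. They hold 567 tested genes, of which 32 were higher and 13 lower at an unadjusted p under 0.05, against 5.18% and 3.29% of all genes tested. With the replicate block edgeR called 9 of them higher and 1 lower, and DESeq2 7 and 1. Over all 17166 genes tested, the block called 249 higher and 61 lower, and DESeq2 250 and 56. These list counts are therefore not read as a result about the lists. No erythroid or megakaryocyte gene passed, although Nfe2 was higher with the replicate block (adjusted p = 0.0106). Median log2 fold changes were -0.30 over 4 globin genes, -0.41 over 17 red cell membrane genes and -0.20 over 11 heme synthesis genes and 0.31 over 20 megakaryocyte genes. The sums overlapped between the groups in each of these 4 lists, as with globin genes at 346 to 1398 CPM in G-NHX9-DDNA and 404.5 to 1278 CPM in G-NHX9-midi-21FGAA. Medians lay between 0.06 and 0.12 over 45 DNA replication genes, 31 mitosis genes and 79 cytosolic ribosomal protein genes, with sums that overlapped between the groups in each.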

How the data were processed

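Libraries were TruSeq Stranded Total RNA, sequenced as paired reads. The authors deposited raw counts per gene for all 35 libraries, which the submitters' processing notes credit to STAR 2.7.0d and HTSeq 0.11.2 on mm10, and also name DESeq2. Genes were fitted with edgeR 4.0.16 (R 4.3.3) on those counts, with TMM factors, filterByExpr over the 7 conditions and 1 mean per condition, and tested by the quasi-likelihood F test with Benjamini-Hochberg adjustment over 17166 genes at 0.05. DESeq2 1.42.0 was an alternative. Of the counts, 99.96% were in tested genes. On simulated counts with 200 changed genes among 16458, edgeR recovered 81% of those changed by a factor of 2 and 100% of those changed by 4. It also called 8 unchanged genes, and DESeq2 called 23. The simulated libraries were not paired, and the changed genes were drawn from those of at least 1 CPM. Recovery below that level was not tested, and 40 of the 157 genes called in the data averaged less. Replicate numbers pair the libraries, though not fully. Deviations of same-numbered libraries from their group means correlated at 0.165 to 0.54 in all 5 pairs. The mean was 0.309, as against -0.0771 for libraries of other numbers. For 6 of the 10 libraries the best match in the other group had the same number. Symbols are the authors', and positions are from GENCODE release M21, where 17124 of the 17166 gene identifiers matched without version. The comparison, the 41 gene lists and the rule for named genes were chosen with earlier results of these data known. That rule takes the fusion's genes, the 12 largest fold changes in each direction among changed genes with at least 2 CPM and no overlap, the 5 smallest p in each direction and members of the lists. Genes outside it were chosen after their values were seen. This also holds for list members named only because the replicate block or DESeq2 called them.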

Additional observations from a re-analysis of the deposited data

Results flagged for a closer look

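Of 136 groups of 5 libraries examined for a library far from the others, 7 met the criterion, and chance flags about 1 group in 20 where groups are independent. In G-NHX9-midi-21FGAA, replicate 5 held 1240 CPM over the interferon-induced genes (next highest 590) and 278 CPM over the interferon-gamma GTPases (next 176), and replicate 1 held 297 CPM over the lymphoid genes (next 250). Immediate early genes summed to 2780 CPM in G-NHX9-DDNA replicate 1 (next 1370) and to 2850 CPM in G-NHX9-midi-21FGAA replicate 1 (next 1410). Empty replicate 1 was also the highest of its group, at 3740 CPM (next 1761), so that replicate 1 stood apart in all 3 groups and these are not independent. For sterol and fatty acid synthesis genes, G-NHX9-DDNA replicate 3 was lowest at 5700 CPM (next 6160) and G-NHX9-midi-21FGAA replicate 4 was highest at 6410 CPM (next 5530).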

How the results depend on the processing

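The number of genes changed between the constructs was 157, of which 133 were higher in G-NHX9-DDNA and 24 lower. It moved by over 1.5 times with the replicate block that the pairing calls for (310, 249 and 61), with a sex score as covariate (244, 203 and 41), with DESeq2 (306, 250 and 56), in a fit to the 10 libraries alone (70, 62 and 8), in that fit with the block, an alternative chosen after seeing the data (266, 216 and 50), and with a log2 fold change of at least 1 added (97, 82 and 15). Leaving out 1 library gave 78 to 198 changed, 67 to 169 higher and 11 to 58 lower. With other scaling factors or filters the count stayed between 121 and 159. Against Empty, 2952 genes changed for G-NHX9-DDNA (517 with the log2 limit, 5079 in its 2 groups alone with the block, 1918 to 3314 without a library) and 2903 for G-NHX9-midi-21FGAA (599 with the log2 limit). Between 3 and 5 primary granule genes were called without a library. The first component held 30.9% of the variance over 1000 genes as against 33.9%. All 36 named genes kept their direction under the alternatives run, and 15 kept their call in each of them. The replicate block ended none of these 36 calls and added those of S100a9, Lcn2, Cd177, Tgif2, Cebpe, Ly6c2, Cma2, Cpa3, Ighm and Nfe2 among the described genes of the lists. In the 10 libraries alone with the block, 5 of the 36 were lost (Spred1, Gbp4, Zfp287, Hk3 and Ccl24). The fit to the 10 libraries alone ended 15 of the 36 calls, and over the 10 fits that left out a library 70 of these calls were lost and 290 kept. Low counts limit Hoxa10 and the genes under 1 CPM, and construct transcripts cannot be told apart from those of the mouse genes.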

Other observations

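Genes below the level required for the named genes were looked at after their values were seen. Among those higher in G-NHX9-DDNA were 2 transcripts of one imprinted region, Dlk1, a Notch ligand-like membrane protein, and the noncoding RNA Rian. Rian was at 0.868, 1.78, 0.184, 0.523 and 1.10 CPM in G-NHX9-DDNA and at 0.241, 0.273, 0.0978, 0.0986 and 0.051 CPM in G-NHX9-midi-21FGAA (adjusted p = 0.00997, and 0.0666 without G-NHX9-DDNA replicate 2), and the groups overlapped through G-NHX9-DDNA replicate 3. Dlk1 was at 0 to 0.515 CPM against 0 to 0.0722 CPM (adjusted p = 0.0187), with no count in G-NHX9-DDNA replicate 3. Among those higher in G-NHX9-midi-21FGAA were Emcn, the endothelial sialomucin endomucin, Gpr63, an orphan receptor gene, and Tgm5, a transglutaminase gene. Emcn was at 0.0587 to 0.242 CPM, with at most 1 count in any G-NHX9-DDNA library. Gpr63 was at 0.1925 to 1.11 CPM and Tgm5 at 0.241 to 0.917 CPM, each with at most 3 counts in any G-NHX9-DDNA library, and Gpr63 shares exonic bases with C230012O17Rik on the opposite strand and with Gm11906 on its own. All 3 were separate between the groups and called in all 10 fits without a library.

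Abundant transcripts outside the lists were also chosen after their values were seen. Lipg, for endothelial lipase, was at 401, 493, 359, 216 and 313 CPM in G-NHX9-DDNA and at 120, 193, 110, 136 and 89.2 CPM in G-NHX9-midi-21FGAA (log2 fold change 1.46 ± 0.27, adjusted p = 0.0029), with 136.5 ± 45.5 CPM in Empty. Plac8, a cysteine-rich protein gene of myeloid progenitors, averaged 165 ± 33.8, 81.0 ± 16.4 and 58.3 ± 16.5 CPM in the same order (1.03 ± 0.18, adjusted p = 0.00241). Stfa1, for the cysteine protease inhibitor stefin A1, averaged 292.5 ± 54.5, 117 ± 31.2 and 112.2 ± 31.4 CPM (1.32 ± 0.29, adjusted p = 0.0169, and 0.0803 without G-NHX9-midi-21FGAA replicate 3). Stefin A genes are near-identical copies, so that the counting could have split their reads.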
